A study of Homo sapiens with 16 samples.

Results

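Nascent transcription after 6 Gy of ionizing radiation was measured in LNCaP cells, an established human prostate cancer line, while the cells were under the antiandrogen enzalutamide. The comparison holds 4 of the 16 libraries of the series, chosen by their column names in the batch 2 count table: replicates 3 and 4 of enzalutamide with 6 Gy against replicates 3 and 4 of enzalutamide alone. Per the labels, both groups received 10 µM enzalutamide for 90 min in all. The irradiated group was exposed to 6 Gy 30 min into that treatment and collected 60 min after the exposure. Enzalutamide was therefore present in the controls too, and no change reported here is an effect of the drug itself. The vehicle arm of the same batch (DMSO, with and without 6 Gy, 2 libraries each) and the earlier batch 1 (mock and 6 Gy, no drug, 2 replicates each) serve only as points of comparison. The data come from 1 cell line. The labels do not say whether replicates were separate cultures, so p-values measure only the spread between these libraries, which may be technical.

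PRO-seq labels RNA at the active site of engaged polymerases in a nuclear run-on, so its counts follow transcription and not the store of mature RNA. Ionizing radiation breaks DNA and activates the kinase ATM, which stabilizes p53. The factor p53 then drives transcription of genes for cell cycle arrest, apoptosis, metabolism and DNA repair, and of its own inhibitor MDM2. Genes of mitosis are known to be repressed in the same response, through the p53 target p21 and the DREAM repressor complex, which binds cell cycle gene promoters at an element called the cell cycle genes homology region, or CHR.

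The 4 libraries held 10494563 to 19905824 counts in genes, and 0.57 to 0.875% of these were mitochondrial. The spread between replicates was above sampling noise in both groups, with a chi-square per degree of freedom of 7.36 in the controls and 3.64 in the irradiated libraries. The 10 LNCaP and luminal prostate markers summed to 2999 to 3596 CPM, counts scaled to library size, and none was at 0. Markers of fibroblasts, leukocytes, endothelium, basal and neuroendocrine cells, 18 in all, summed to 93.4 to 106.7 CPM, of which 1 or 2 were at 0 in each library. Neither list had a member that passed the test.

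After 6 Gy under enzalutamide, transcription of p53 target genes rose and transcription of mitotic genes fell. A gene was called when its Benjamini-Hochberg adjusted p in edgeR's quasi-likelihood test was below 0.05. Of 28651 genes tested, 179 were called higher (0.625%) and 84 were called lower (0.293%), 263 in all (0.918%). The genes called higher changed by a median of 0.92 on the log2 scale and 78 of them by more than 2-fold. Those called lower changed by a median of -0.70 and 12 of them by more than 2-fold. In none of the 263 did the 2 groups overlap, so each moved the same way in replicates 3 and 4. The calls were made on these same libraries, so this is a description and no separate support. With the replicate number as a term in the model 951 genes were called (3.32%), 536 higher (1.87%) and 415 lower (1.45%), and the 263 were all among them. Leaving out replicate 3 or replicate 4 of the irradiated group left 156 and 138 calls, and leaving out replicate 4 of the controls gave 410.

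**Figure D1:**
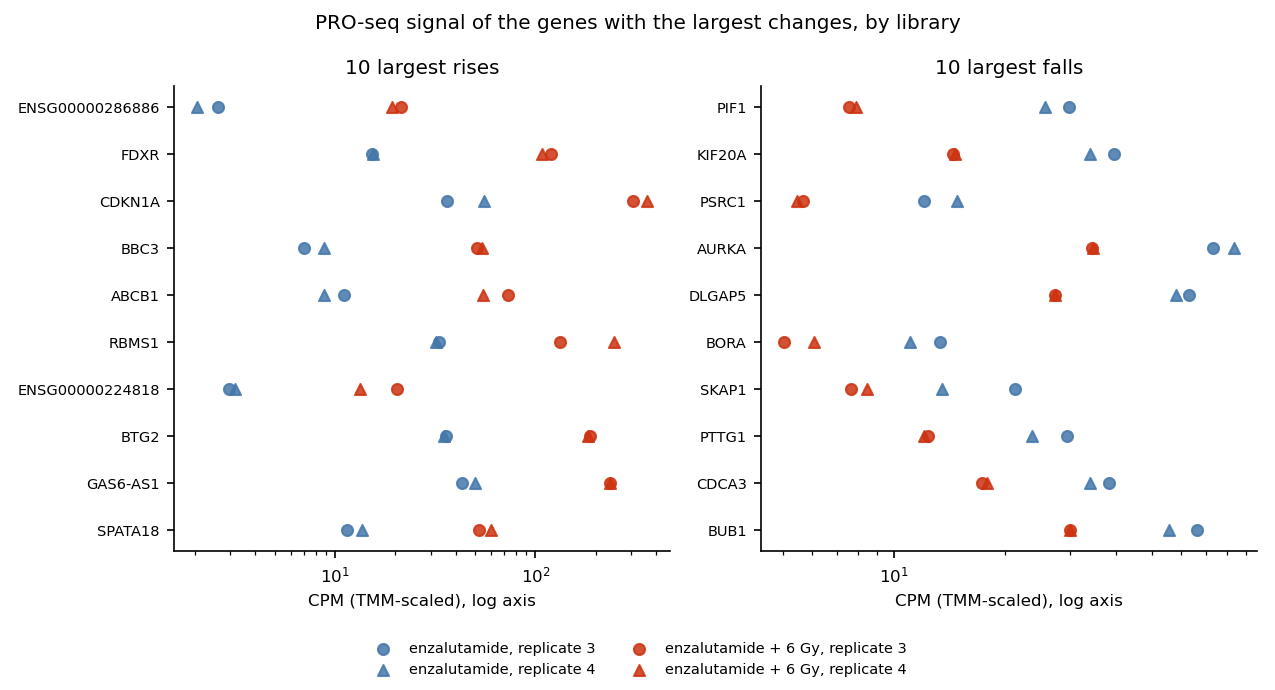
Level of the 10 genes with the largest rises (left) and the 10 with the largest falls (right) among called genes with at least 50 counts on average. Each point is 1 library, on a log axis of TMM-scaled CPM, with blue for enzalutamide and red for enzalutamide with 6 Gy. Irradiated and control libraries do not overlap for any of the 20 genes, and RBMS1 shows the widest gap between its irradiated replicates, 132.5 and 246.1 CPM.

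The rule that named these 20 genes asked for no overlap between groups, so their separation is a description. FDXR, which encodes the mitochondrial ferredoxin reductase and is a known p53 target, stood at 15.3 and 15.5 CPM in controls and at 119.8 and 107.4 CPM after 6 Gy. Its log2 change was 2.88 ± 0.11 (SE, n = 2 libraries a group, adjusted p = 3.61e-08). Both irradiated libraries were far above both controls, and the replicates of each group lay close together.

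CDKN1A, the gene of the cell cycle inhibitor p21 at chr6:36676463-36687332, is the standard marker of p53 activity. It stood at 36.2 and 55.5 CPM in controls and rose to 305.4 and 362.5 CPM, a log2 change of 2.88 ± 0.17 (adjusted p = 1.13e-06). Replicate 4 was the higher library in both groups, by less than the gap between groups. BBC3, which encodes the apoptosis effector PUMA, went from 7.02 and 8.81 CPM to 51.1 and 54.4 CPM, a log2 change of 2.76 ± 0.13. BTG2, an antiproliferative p53 target, went from 35.6 and 34.8 CPM to 187.3 and 182.5 CPM, and its log2 change of 2.39 ± 0.09 had the smallest adjusted p among the named genes, 2.80e-08. In neither gene did the groups overlap.

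The p53 targets were listed by role, and all lists named here were drawn up with earlier results of these data known, so a list's direction is not independent evidence. Over the 4 coding lists together, 39 of 61 tested members were called higher and none lower, against 0.625% and 0.293% of all genes. The median log2 change of the 61 was 0.87, beside -0.01 over all genes tested. Leaving out any 1 of the 8 libraries of the fit left 33 to 39 members called.

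Among 16 genes of arrest and feedback, 11 were called higher and the median log2 change was 1.23. MDM2, the ubiquitin ligase that degrades p53, stood at 163.4 and 151.0 CPM in controls and at 595.6 and 646.6 CPM after 6 Gy, a log2 change of 1.98 ± 0.10. PPM1D, which encodes the phosphatase WIP1 that switches off damage signalling, rose from 80.7 and 74.6 CPM to 184.7 and 190.6 CPM (log2 change 1.27 ± 0.09). Both negative regulators of the pathway were thus already transcribed more 60 min after the exposure, and the groups did not overlap in either. RPS27L rose by 1.63 ± 0.10 on the same scale.

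Of 17 apoptosis genes, 11 were called higher, with a median of 0.94. PHLDA3, an inhibitor of the survival kinase AKT, went from 29.2 and 33.1 CPM to 137.6 and 119.7 CPM, a log2 change of 2.05 ± 0.11. FAS, a death receptor, went from 8.70 and 10.9 CPM to 29.8 and 33.95 CPM (1.73 ± 0.14). BAX, which permeabilizes the outer mitochondrial membrane, went from 11.4 and 18.4 CPM to 43.7 and 42.5 CPM (1.57 ± 0.19). The 2 controls of BAX differed more than those of FAS or PHLDA3, and none of these genes had overlapping groups. FAS overlaps ACTA2 in RefSeq, and since strand use in the counting is not given in the sources used here, reads of such pairs cannot be told apart.

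The metabolism and stress list had 20 tested members, of which 11 were called higher with a median of 0.61, and all 20 log2 changes were above 0. Besides FDXR, its largest rises were SPATA18, which acts in mitochondrial quality control, from 11.5 and 13.6 CPM to 52.1 and 60.2 CPM (2.18 ± 0.13), and GDF15, a secreted stress cytokine, from 27.3 and 21.04 CPM to 91.4 and 72.1 CPM (1.74 ± 0.20). For GDF15, replicate 3 was the higher library in both groups. NINJ1, which encodes a protein that ruptures the plasma membrane of dying cells, rose by 1.66 ± 0.09. SESN1, a sestrin that restrains mTORC1, rose less, by 0.79 ± 0.11, from 108.7 and 92.2 CPM to 170.5 and 178.8 CPM.

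Of 9 repair genes that are p53 targets, 6 were called higher, with a median of 0.80. DDB2, a sensor of ultraviolet lesions, went from 50.1 and 54.2 CPM to 215.8 and 187.4 CPM (log2 change 1.95 ± 0.11), and its partner in lesion recognition XPC from 67.1 and 69.5 CPM to 146.0 and 153.8 CPM (1.14 ± 0.09). POLH, a translesion polymerase, rose by 1.24 ± 0.09. LIG1 and PCNA, which also serve replication, rose by 0.83 ± 0.09 and 0.80 ± 0.10. None of 43 double-strand break repair genes (median 0.04), none of 20 checkpoint genes (median 0.07) and none of 30 genes of excision repair, mismatch repair and translesion synthesis (median 0.06) was called. Since 0.918% of all genes were called, lists of these sizes would hold few calls or none, and their counts of 0 say nothing particular. With the replicate term, 2 double-strand break repair genes were called higher and 1 lower, and 1 checkpoint gene was called lower. In that fit 1.87% of all genes were called higher and 1.45% lower.

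Of 6 long non-coding p53 targets, 3 were called higher, beside 0.625% of all genes. MIR34AHG, the host transcript of the p53-induced microRNA miR-34a, went from 72.7 and 79.0 CPM to 198.0 and 203.8 CPM, a log2 change of 1.41 ± 0.09. TP53TG1 rose by 0.96 ± 0.12. DINOL, which lies within CDKN1A in RefSeq, rose by 1.92 ± 0.28 from only 1.22 and 1.11 CPM, so its reads may belong in part to CDKN1A. Its call was lost when replicate 4 of the irradiated group was left out.

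**Figure D2:**
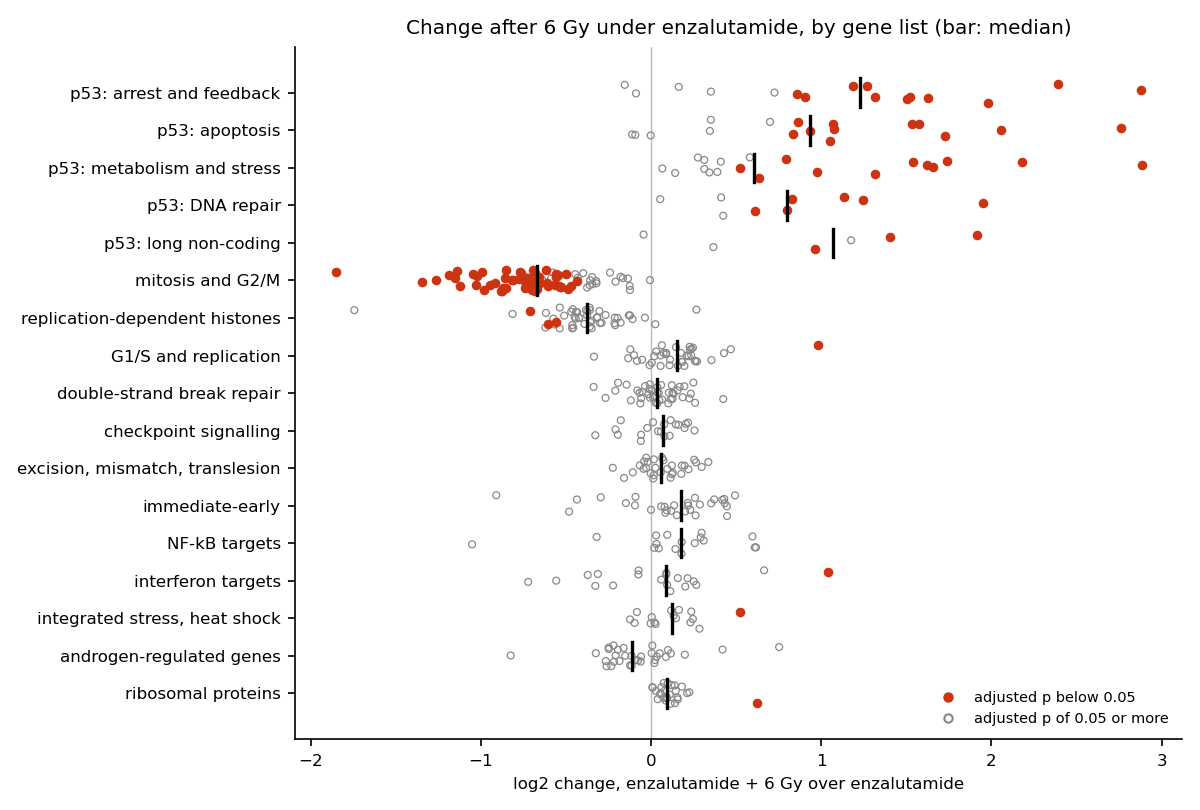
Fitted log2 change after 6 Gy under enzalutamide for each tested member of 17 gene lists. Each point is a gene, filled red where its adjusted p is below 0.05, and the bar is the list's median. Called members of the p53 lists all lie above 0, called members of the mitosis and histone lists all lie below 0, and each other list has at most 1 called member.

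Most of the genes called lower act in mitosis. Of 75 tested members of the list of mitosis and G2/M genes, 54 were called lower and none higher, against 0.293% of all genes called lower. All 75 fitted log2 changes were below 0, with a median of -0.67. In bulk cells, fewer cells in a phase of the cycle and less transcription per cell cannot be told apart. The number called fell to 24 and 29 without replicate 4 or replicate 3 of the irradiated group, while the median then was -0.63 and -0.68. PIF1, a DNA helicase, fell most, from 29.9 and 25.6 CPM to 7.53 and 7.86 CPM, a log2 change of -1.85 ± 0.14 (adjusted p = 9.46e-06). Its irradiated libraries were nearly equal and lay well under both controls.

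Promoter sequences are shown for the 8 of the 10 largest falls for which the RefSeq table held one, AURKA and SKAP1 having no entry. Each line below gives 90 bases before and 30 bases after the RefSeq start, 5′ to 3′, from GRCh38.p14. Capitals mark the CHR core, searched on both strands as TTTGAA or TTCGAA, and the CCAAT box, which reads ATTGG on the other strand. PIF1 is at chr15:64825618-64825737 on the minus strand, KIF20A at chr5:138179022-138179141 on the plus strand, and PSRC1 at chr1:109283116-109283235 on the minus strand. DLGAP5 is at chr14:55191556-55191675 on the minus strand, BORA at chr13:72727833-72727952 on the plus strand, and PTTG1 at chr5:160421765-160421884 on the plus strand. CDCA3 is at chr12:6851257-6851376 on the minus strand and BUB1 at chr2:110678034-110678153 on the minus strand. All 8 windows hold a CCAAT box and 5 hold a CHR core. BORA has a core further upstream, outside the window, and KIF20A and PTTG1 have neither searched form within the longer promoters described next. Other forms of the CHR were not searched, so its absence from a promoter is not shown.

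PIF1: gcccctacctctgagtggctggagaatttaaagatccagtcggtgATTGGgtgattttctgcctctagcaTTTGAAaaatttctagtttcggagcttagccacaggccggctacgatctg
KIF20A: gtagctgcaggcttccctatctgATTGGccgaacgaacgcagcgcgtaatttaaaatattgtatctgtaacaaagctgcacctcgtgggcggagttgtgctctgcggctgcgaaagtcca
PSRC1: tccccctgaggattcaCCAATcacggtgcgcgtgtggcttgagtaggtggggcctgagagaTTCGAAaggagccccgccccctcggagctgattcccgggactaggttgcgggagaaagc
DLGAP5: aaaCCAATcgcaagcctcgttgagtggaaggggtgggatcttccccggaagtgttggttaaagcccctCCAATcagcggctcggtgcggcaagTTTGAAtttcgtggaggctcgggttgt
BORA: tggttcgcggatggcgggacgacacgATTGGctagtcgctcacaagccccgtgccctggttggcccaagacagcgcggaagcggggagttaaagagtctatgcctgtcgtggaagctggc
PTTG1: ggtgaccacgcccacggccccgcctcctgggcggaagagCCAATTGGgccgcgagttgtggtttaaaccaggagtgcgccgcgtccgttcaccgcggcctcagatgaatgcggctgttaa
CDCA3: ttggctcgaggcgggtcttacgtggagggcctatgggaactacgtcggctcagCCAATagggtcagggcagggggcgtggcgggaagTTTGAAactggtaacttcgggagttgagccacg
BUB1: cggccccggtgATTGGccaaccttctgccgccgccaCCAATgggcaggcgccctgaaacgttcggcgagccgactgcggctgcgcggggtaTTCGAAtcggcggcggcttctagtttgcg

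Promoters of 300 bases, from 250 before to 50 after the start, were found in RefSeq for 64 of the 75 mitosis genes (85.3%). A CHR core lay in 47 of these 64 (73.4%), against 4539 of all 27305 promoters in the table (16.6%). A CCAAT box lay in 48 (75%), against 35.7% of all promoters, and both elements in 40 (62.5%), against 6.58%. A CHR core within 50 bases of the start was found in 39 of the 64 (60.9%) and in 5.05% of all promoters. Among the list's members called lower the core was in 35 of 44 promoters (79.5%), and among those not called in 12 of 20 (60%). Within 50 bases of the start, the core was in 27 of the 44 (61.4%) and in 12 of the 20 (60%). These matches describe the letters only. Promoters were found for 65.4% of the genes called higher and 73.8% of those called lower, under the 80% that such a count over a set needs, so the motif check over those 2 sets, p53 elements included, is void.

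KIF20A, a kinesin of cytokinesis, went from 39.6 and 34.02 CPM to 14.4 and 14.7 CPM, a log2 change of -1.34 ± 0.12. PSRC1, a spindle protein, fell from 12.1 and 14.8 CPM to 5.67 and 5.43 CPM (-1.26 ± 0.17). DLGAP5, which stabilizes spindle microtubules, fell from 63.2 and 58.1 CPM to 27.3 and 27.3 CPM (-1.15 ± 0.10). In all 3 genes the irradiated replicates were almost the same and the controls were more than 2 times as high.

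Among the kinases on the list, AURKA, the Aurora A gene, went from 73.4 and 83.8 CPM to 34.5 and 34.5 CPM, a log2 change of -1.18 ± 0.09 (adjusted p = 1.41e-05). PLK1, which drives mitotic entry and the spindle, went from 65.3 and 69.3 CPM to 36.5 and 31.1 CPM (-0.99 ± 0.11). CCNB1, the cyclin B1 gene, went from 72.9 and 70.2 CPM to 40.7 and 37.4 CPM (-0.87 ± 0.11). The groups of each gene stood apart, with both controls well above both irradiated libraries. BORA, an activator of Aurora A toward PLK1, fell by 1.14 ± 0.20 on the log2 scale, but its call was lost when either irradiated library or replicate 3 of the controls was left out.

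PTTG1, which encodes securin, went from 29.4 and 23.6 CPM to 12.4 and 12.1 CPM (log2 change -1.12 ± 0.14), and CDC20, an activator of the anaphase-promoting complex, from 42.2 and 42.6 CPM to 22.1 and 24.7 CPM (-0.86 ± 0.11). BUB1, a checkpoint kinase, went from 66.2 and 55.8 CPM to 30.0 and 30.0 CPM (-1.03 ± 0.11), and CDCA3, which promotes mitotic entry, from 38.3 and 34.02 CPM to 17.3 and 17.9 CPM (-1.04 ± 0.13). No library of 1 group reached the range of the other. FOXM1, a transcription factor of G2/M genes, was not called, at 54.2 and 47.6 CPM in controls and 45.8 and 47.2 CPM after 6 Gy (-0.13 ± 0.10, adjusted p = 0.719). It was chosen for mention after its values were seen, as was CENPF, a kinetochore protein gene, whose replicates moved in opposite directions, from 141.6 to 74.6 CPM in replicate 3 and from 107.9 to 174.2 CPM in replicate 4.

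**Figure D3:**
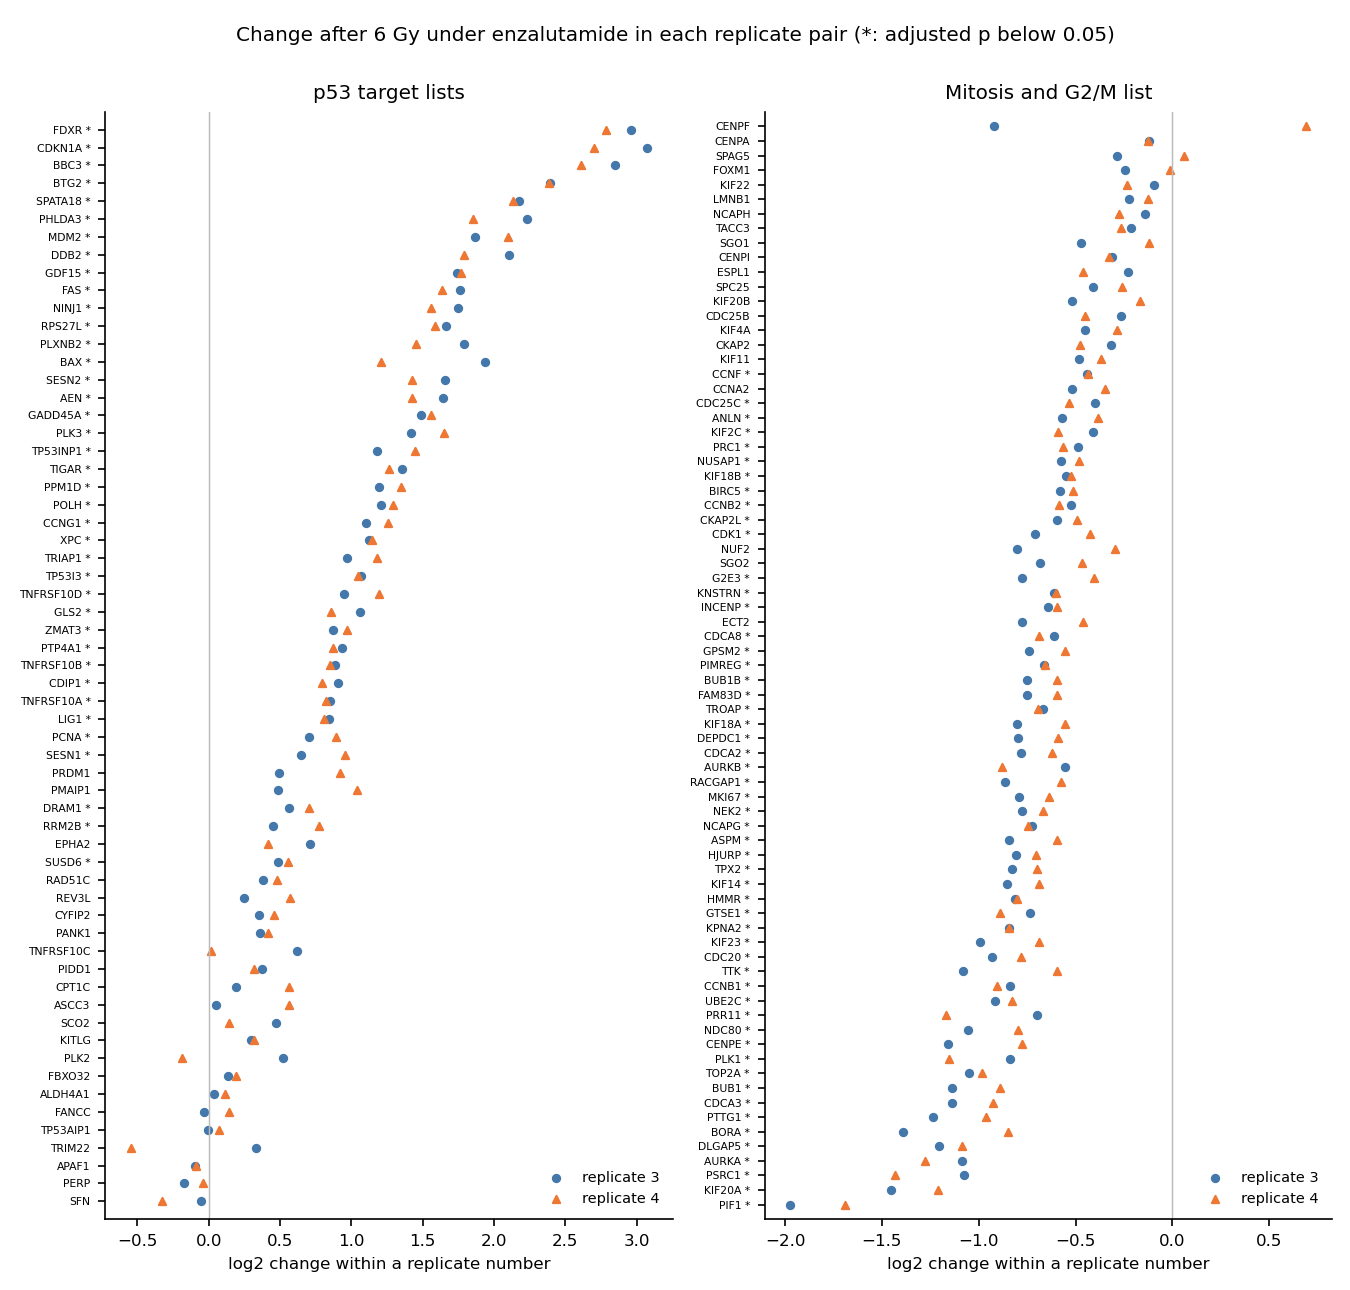
Log2 ratio of irradiated over control CPM within replicate 3 (blue circles) and within replicate 4 (orange triangles), for the 61 tested p53 targets (left) and the 75 mitosis and G2/M genes (right), after adding 0.1 CPM. An asterisk marks an adjusted p below 0.05. The 2 replicates keep the same sign for every called gene, and CENPF at the top right has them on opposite sides of 0.

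Of 38 tested genes of G1/S and DNA replication, 1 was called higher and none lower, and the median log2 change was 0.15. The share called was 2.6%, beside 0.625% of all genes called higher. The called gene was TYMS, which makes thymidylate for DNA synthesis, at 41.1 and 44.5 CPM in controls and 85.2 and 83.8 CPM after 6 Gy (log2 change 0.98 ± 0.10). TYMS overlaps TYMSOS and ENOSF1 in RefSeq. With the replicate term 4 of the 38 were called higher, beside 1.87% of all genes.

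Replication-dependent histone genes, which are transcribed in S phase, mostly had fitted changes below 0. Of 50 tested, 3 were called lower, 48 had a fitted change below 0, and the median was -0.38. Of all genes 0.293% were called lower. The count was 13 without replicate 4 of the controls and 1 without replicate 3 of the irradiated group. H4C3 stood at 112.3 and 121.2 CPM in controls and 71.4 and 71.3 CPM after 6 Gy (log2 change -0.71 ± 0.09). H2AC4 and H2AC14 fell by 0.60 ± 0.11 and 0.56 ± 0.10, and both calls were lost when replicate 3 of either group was left out, that of H2AC4 also without irradiated replicate 4. With the replicate term 24 of the 50 were called lower, beside 1.45% of all genes. Histone genes are near-identical copies whose reads the counting could split, so single members are uncertain.

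None of 30 immediate-early genes (median 0.18) and none of 17 NF-kB targets (median 0.18) was called. Since 0.918% of all genes were called, lists of this size would hold few calls at that share, and the count of 0 says nothing particular about them. JUN stood at 84.6 and 75.0 CPM in controls and 81.3 and 78.6 CPM after 6 Gy, a log2 change of 0.00 ± 0.11, and its groups overlapped. NFKBIA, an NF-kB inhibitor and target, stood at 44.7 and 33.6 CPM against 45.6 and 52.1 CPM, and its change of 0.31 ± 0.13 had an adjusted p of 0.480. FOS was at 8.14 and 3.52 CPM in controls and 4.86 and 6.15 CPM after 6 Gy, with the 2 controls further apart than the groups. ATF3, a stress factor, stood at 85.1 and 59.5 CPM in controls and 80.5 and 74.8 CPM after 6 Gy. With the replicate term, 3 immediate-early genes were called higher and 2 lower, and 1 NF-kB target was called higher. Of all genes, 1.87% were called higher and 1.45% lower in that fit.

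Each of 3 further lists had 1 member called higher, beside 0.625% of all genes. A single call in lists of this size says little about the list. DDIT4, an mTORC1 inhibitor on the list of 16 genes of the integrated stress and heat shock responses (median 0.13), rose by 0.52 ± 0.09 on the log2 scale. ISG20, an exonuclease on the list of 20 interferon targets (median 0.09), rose by 1.04 ± 0.11, from 36.3 and 44.6 CPM to 79.5 and 86.0 CPM. RPS19, on the list of 26 ribosomal protein genes (median 0.10), rose by 0.63 ± 0.09. The call of DDIT4 was lost without either irradiated library or replicate 3 of the controls.

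Androgen-regulated genes were examined because both groups had received the antiandrogen. None of 33 tested was called, with a median log2 change of -0.11, and at the 0.918% of all genes few calls would fall in a list of this size. TMPRSS2, a classical target, stood at 294.5 and 293.6 CPM in controls and 293.7 and 270.4 CPM after 6 Gy. FKBP5 stood at 133.7 and 129.6 CPM against 135.3 and 132.5 CPM, a log2 change of 0.02 ± 0.09. KLK2, a kallikrein gene next to the prostate-specific antigen gene KLK3, stood at 160.3 and 78.7 CPM in controls and 137.3 and 66.1 CPM after 6 Gy, so that replicate 3 was far above replicate 4 in both groups. KLK3 had the same order, with 12.01 and 5.28 CPM in controls and 9.07 and 5.43 CPM after 6 Gy. With the replicate term 2 of the 33 were called higher and 1 lower, beside 1.87% and 1.45% of all genes.

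The response under enzalutamide was set against the response to the same dose in vehicle, measured in 4 other libraries of the batch. Both arms were fitted in 1 model with a shared estimate of each gene's spread, so their calls are not independent. In vehicle 314 genes were called (1.1%). Of the 263 genes called under enzalutamide 228 were called in vehicle too, which is 86.7% of the 263 and 72.6% of the 314, and 261 had the same direction. The 35 others had a median adjusted p of 0.116 in vehicle. The difference between the 2 responses, tested as an interaction in edgeR, was called for no gene (0%), with 343 genes at an unadjusted p below 0.05. Among 28651 genes tested, that is a smaller share than the 0.05 that such a threshold would pass if no gene differed. The test was therefore conservative for this difference, and its lack of calls does not show that the 2 responses were equal. DESeq2 and limma voom called none either, the replicate term gave 1 call (RBMS1, adjusted p = 0.00459), and 32 genes were called with no filter on low counts.

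The precision of that difference was moderate. Among the 263 genes its 95% interval reached a median of 0.33 on the log2 scale to either side, and it lay within 1.5-fold in either direction for 203 genes and within 2-fold for 248. For CDKN1A the difference was -0.14 ± 0.23 and for FDXR 0.04 ± 0.16. The p53 lists had 43 members called higher in vehicle with a median of 0.93, and the mitosis list had 53 called lower with a median of -0.65. BBC3 rose more under enzalutamide, by 0.44 ± 0.18 on the log2 scale, with an unadjusted p of 0.0252 and an adjusted p of 1. Smaller differences than these intervals were not detectable with 2 libraries a group.

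Batch 1, with no enzalutamide, shares no library with batch 2, and 731 genes were called there (2.82%). All 263 genes were tested in it. Of these 257 had the same direction, 229 were called in that direction (87.1% of the 263 and 31.3% of the 731), and GOLGA1 was called in the opposite one. To compare the arms on genes chosen in neither, the 718 genes called in batch 1 and tested in batch 2 were used. Of 510 higher in batch 1, 476 were above 0 under enzalutamide, with a median log2 change of 0.46, beside 0.50 in vehicle and 0.96 in batch 1. The batch 1 value comes from the libraries that chose these genes, and the labels give no collection time for that batch. The change was the smaller one under enzalutamide for 323 of the 510. The medians within replicates 3 and 4 were 0.49 and 0.45 under enzalutamide and 0.52 and 0.48 in vehicle, lower under enzalutamide for each replicate number. Of 208 lower in batch 1, 197 were below 0 under enzalutamide, with a median of -0.49, beside -0.53 in vehicle and -0.76 in batch 1, and 129 had the smaller change under enzalutamide. Within replicates these medians were -0.57 and -0.40 under enzalutamide and -0.52 and -0.51 in vehicle. The ranges of the 2 arms overlapped in both directions.

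**Figure D4:**
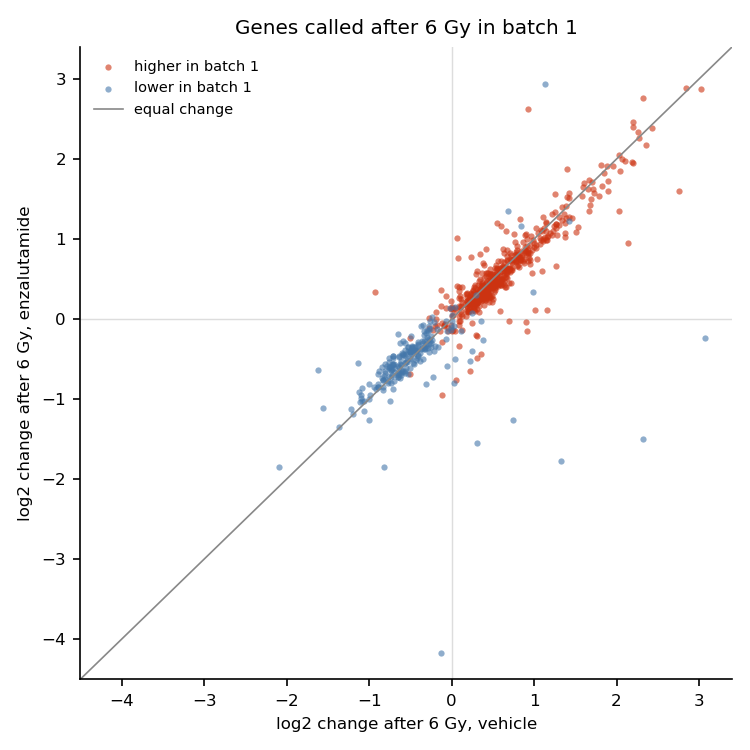
Fitted log2 change after 6 Gy in vehicle (horizontal) and under enzalutamide (vertical) for the 718 genes called in batch 1 and tested in batch 2. Red genes were higher and blue genes lower in batch 1, and the line marks equal change. The points lie along the line, with medians of 0.50 and 0.46 for the 510 red genes, and the few points far off it include KIFC3 at -0.13 and -4.17.

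Median changes were also taken by gene length. Over 15719 genes with at least 50 counts on average and a RefSeq length (83.9% of such genes), the median log2 change under enzalutamide was 0.08 for genes of 5 to 20 kb and -0.15 for the 1535 genes over 200 kb. Within replicates 3 and 4 the longest genes had medians of -0.15 and -0.11. The vehicle arm had -0.14 for the same genes and batch 1 had 0.01.

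**Figure D5:**
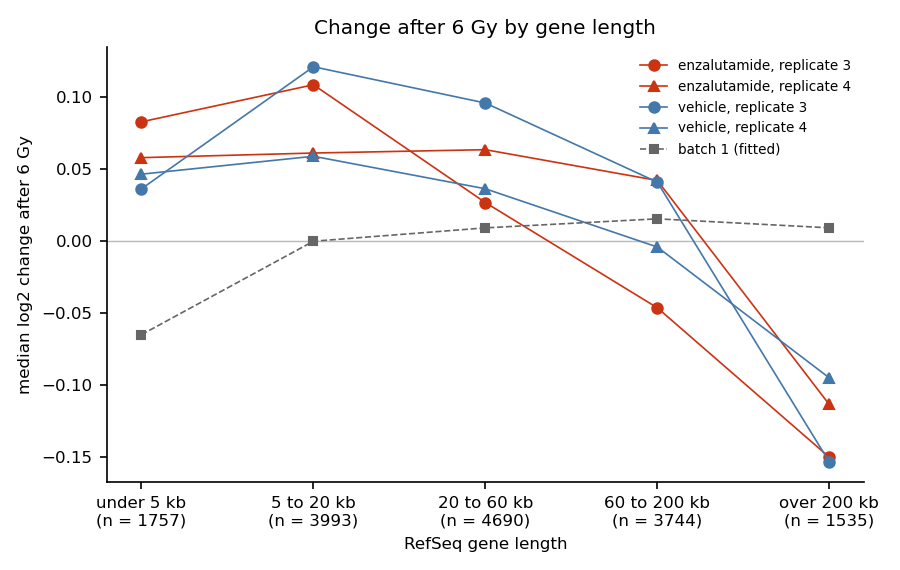
Median log2 change after 6 Gy by RefSeq gene length, in replicates 3 and 4 under enzalutamide (red) and in vehicle (blue), and as fitted in batch 1 (grey squares). Genes over 200 kb have the lowest median in each of the 4 replicate series of batch 2, from -0.15 to -0.10, and 0.01 in batch 1.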

How the data were processed

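Gene-level PRO-seq read counts were used as the authors deposited them, in 1 table per batch with 60605 Ensembl identifiers, of which 99.8% matched a gene name. Per the submitters' processing notes, the tools were cutadapt 1.8.1, Bowtie2 2.4.4 and SAMtools 1.9 and the build hg38. The counting tool, annotation, strand use and duplicate removal are not given in the sources used here, so overlapping genes, antisense genes and near-identical copies are uncertain.

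Genes were kept by filterByExpr defaults and scaled by TMM factors (0.991 to 1.03 in the 4 libraries). They were tested with edgeR 4.0.16 in R 4.3.3 (glmQLFit, glmQLFTest, two-sided, Benjamini-Hochberg adjustment, threshold 0.05) in 1 model of all 8 libraries of batch 2, with a coefficient per group. SE is the log2 change over the root of F, and CPM are TMM-scaled. In batch 1, t1 and t2 libraries, whose meaning the labels do not give, were summed per replicate. Replicate numbers are shared in the labels. The correlation of their deviations between the 2 groups was 0.103, and 0.103 to 0.262 over all pairs of groups, so the replicate term was fitted as an alternative. RLE factors, total counts, filters, DESeq2 1.42.0, limma 3.58.1 (voom) and left-out libraries were the other alternatives. The test was run on simulated data, where it recovered fewer of the smaller changes and made false calls at a rate above the threshold.

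Genes named are the 10 largest rises and 10 largest falls among called genes with at least 50 counts on average and no overlap between groups, up to 4 called genes of each list, a panel taken whatever its values (some of its members are not reported here), and the 5 with the smallest interaction p. Other genes, GOLGA1 and KIFC3 among them, were named after their values were seen or because they overlap a named gene. Lists, panel and comparison were chosen with earlier results of these data known. Sequences and positions are from RefSeq GRCh38.p14, matched by symbol, with the first entry used for genes with several.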

Additional observations from a re-analysis of the deposited data

How the results depend on the processing

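With the replicate block, the number of genes called for 6 Gy under enzalutamide was 951, in vehicle 1315, for the difference between the arms 1, and in batch 1 2332. The 4 enzalutamide libraries alone with the block gave 796. With no filter on low counts the 4 comparisons had 556, 624, 32 and 1157 calls. Leaving out 1 library at a time gave 138 to 410 calls under enzalutamide, 159 to 502 in vehicle, 0 to 4 for the difference and 600 to 1471 in batch 1. In batch 1, t1 libraries alone gave 3995 calls and t2 libraries alone 9800. The cause was not tested. The count under enzalutamide was 264 with RLE factors, 243 with total counts, 242 with a minimum of 50 counts, 305 with DESeq2, 258 with voom and 217 on 4 libraries.

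Among the 60 named genes, no call turned into a call in the opposite direction under any of these alternatives. The sign of a gene that was not called can depend on 1 library. For FOS, control replicate 4 (3.52 CPM) lay below both irradiated libraries (4.86 and 6.15 CPM), while control replicate 3 (8.14 CPM) lay above both. The block ended no call of a named gene, and RBMS1 was the 1 gene it called for the difference. RBMS1 lost its call with total counts, with the minimum of 50 counts, with DESeq2 and with voom. None of the 263 called genes had overlapping groups, so leaving out 1 library could hardly turn their direction, and it turned none. That outcome is no test of the calls, and part of the 263 lost their call each time. With 2 libraries a group, the 95% interval of a change reached a median of 0.41 on the log2 scale to either side over all genes.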

Other observations

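Outside the lists, 133 genes were called higher and 27 lower after 6 Gy under enzalutamide. The genes in this paragraph were chosen after their values were seen and stand for no group. LIF, a cytokine of the interleukin 6 family, went from 4.58 and 4.91 CPM to 17.2 and 18.7 CPM (log2 change 1.93 ± 0.16), EDN2, an endothelin, rose by 1.40 ± 0.18, GDNF by 1.33 ± 0.18 and GDF5 by 1.21 ± 0.12. The receptor gene NOTCH1 rose from 49.2 and 71.2 CPM to 106.1 and 124.1 CPM (0.95 ± 0.18) and its ligand gene JAG1 by 0.46 ± 0.09. E2F7, a repressor of E2F target genes, rose by 0.74 ± 0.10. Among the falls off the list were CEP55, a protein of abscission (-0.67 ± 0.10), FBXO5, an inhibitor of the anaphase-promoting complex (-0.62 ± 0.12), and the near-identical copies FAM72A to FAM72D (-0.84 to -0.65). The genes of both directions had no overlap between groups.

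ABCB1, which encodes the drug efflux pump P-glycoprotein, went from 11.1 and 8.81 CPM to 73.4 and 54.9 CPM under enzalutamide (log2 change 2.66 ± 0.21) and from 11.2 and 12.6 CPM to 105 and 160.3 CPM in vehicle. In batch 1 it stood at 5.75 and 4.94 CPM in mock cells and 5.60 and 5.81 CPM after 6 Gy. ENSG00000286886, which has no symbol, had the same pattern, with 2.60 and 2.04 CPM against 21.4 and 19.2 CPM under enzalutamide, a log2 change of 3.71 in vehicle and 0.08 in batch 1. The cause of this difference between batches was not tested.

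RBMS1, an RNA-binding protein gene, had the smallest interaction p (0.00071, adjusted p = 1). Its interaction was called with the replicate term, at an adjusted p of 0.00459. It stood at 33.1 and 32.0 CPM in enzalutamide controls, 132.5 and 246.1 CPM with 6 Gy, 30.4 and 145.6 CPM in vehicle and 60.9 and 65.6 CPM with vehicle and 6 Gy, so that its vehicle replicates alone differed more than 4 times. SKAP1, a T-cell adaptor gene, fell from 21.2 and 13.4 CPM to 7.61 and 8.44 CPM under enzalutamide, beside log2 changes of -0.25 in vehicle and -0.02 in batch 1. The difference between the arms had an adjusted p of 1 in edgeR. Both genes lost their call when 1 library was left out: SKAP1 without either irradiated library or replicate 3 of the controls, and RBMS1 without irradiated replicate 4, either enzalutamide control or either vehicle library with 6 Gy.

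The 17 genes of 5S ribosomal RNA, which RNA polymerase III transcribes, were chosen after their values were seen and are near-identical copies, so they are best read as a sum. Under enzalutamide they summed to 1078 and 1322 CPM in controls and 935.4 and 729.7 CPM after 6 Gy. All 17 had a fitted change below 0, with a median of -0.52, and 6 were called lower, beside 0.293% of all genes. With the replicate term 13 were called lower, beside 1.45% of all genes. The vehicle sums were 988.7 and 1010 CPM in controls and 857.4 and 890.2 CPM after 6 Gy, with a median of -0.20 and no call in edgeR. In batch 1, without enzalutamide, they were 2604 and 1877 CPM in mock cells and 2189 and 1440 CPM after 6 Gy, with a median of -0.35. The interaction had an unadjusted p below 0.05 for 4 of them and no adjusted p below 1. Leaving out 1 library gave 0 calls without replicate 4 of the irradiated group, 1 without replicate 4 of the controls and 10 without replicate 3 of the controls, with medians of -0.40, -0.40 and -0.63.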
